A study of Mus musculus with 4 samples.

Results

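The 6 genes Adam8, Adam9, Adam10, Adam15, Adam17 and Adam19, out of 18560 genes in the deposited table, encode the ADAM sheddases described here. They were chosen by gene symbol from a list proposed with the CPM and FPKM values of the knockout against wild type comparison in view, so their levels and fold changes are given as a description and no test is reported for them. All 6 passed the filter on low counts that left 12816 tested genes. The libraries were RNA-seq of C57BL/6 spleen CD4+ T cells, stimulated from the naive state through CD3 and CD28 to give Th0 cells, which are activated helper T cells not steered toward an effector type. There were 2 knockout libraries (KO, genotype label Setd2-CD4 cre, replicates 9 and 12) and 2 wild type libraries (WT, replicates 1 and 6). Setd2 is the enzyme that trimethylates lysine 36 of histone H3, and a Cre driven by Cd4 acts in the thymus, before CD4+ and CD8+ T cells part, so it is not specific to CD4+ T cells. The labels do not give the Setd2 allele, the age of the mice, whether the wild type mice carried the Cre, or whether replicates came from separate animals, so the spread between replicates may be technical. The sources give different stimulation times, namely 3 days (treatment labels), 2 days (design text) and 48 with no unit (sample titles).

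ADAM proteins are membrane-anchored proteases with a prodomain, a zinc-dependent catalytic domain and a disintegrin domain. As sheddases they cut other membrane proteins close to the cell surface, which releases cytokines, cytokine receptors and adhesion molecules and starts Notch signalling. In T cells ADAM17, also called TACE, releases tumour necrosis factor, and ADAM10 makes the first ligand-induced cut in Notch receptors and releases Fas ligand and LAG-3. ADAM8 is a leukocyte protease, also known as CD156a. ADAM9, ADAM15 and ADAM19 are more widely expressed members of the same family.

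What the 6 genes share is the active site. The bases below encode its zinc-binding motif and are shown because ADAM proteins without this motif are not active proteases. They were read from the GENCODE M21 transcripts (GRCm38), on the coding strand from 5′ to 3′, and the capitals mark the 4 codons of the 3 zinc-binding histidines and of the catalytic glutamate between the first and the second of them.
Adam8: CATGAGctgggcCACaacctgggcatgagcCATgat
Adam19: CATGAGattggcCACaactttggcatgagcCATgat
Adam9: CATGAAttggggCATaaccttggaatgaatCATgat
Adam15: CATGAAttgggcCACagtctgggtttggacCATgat
Adam10: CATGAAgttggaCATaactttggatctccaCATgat
Adam17: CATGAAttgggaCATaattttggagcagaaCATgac
The site was located by a search of the coding transcripts for this motif. That search set the 4 marked amino acids and part of the shared bases in advance. A match was found in 6 of 6 genes, and 19 of the 36 bases were the same in all of them. Adam8 and Adam19 were the closest pair, with 32 of 36 bases in common (88.9%), and Adam8 and Adam17 the most distant, with 21 of 36 (58.3%). Adam10 and Adam17 shared 28 of 36 bases (77.8%). The capital bases differed only in the third position of a codon, as the search required, so the 4 marked amino acids are the same in the 6 genes. The site lay in exon 11 for Adam8 (minus strand, chr7:139987890-139987925), Adam9 (minus, chr8:24990323-24990358), Adam15 (minus, chr3:89344777-89344812) and Adam19 (plus, chr11:46125050-46125085). It lay in exon 12 for Adam17 (minus, chr12:21336729-21336764) and was split between exons 9 and 10 for Adam10 (plus, chr9:70754296-70761588, which includes the intron). The bases shown are from 1 transcript per gene. The search found the site in 1 of 2 annotated coding transcripts of Adam10 and in 2 of 3 of Adam17. It was found in every coding transcript of the other genes.

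The libraries held between 17284613 and 20418766 estimated counts, and no replicate number was shared between the groups. Levels are given as CPM (counts scaled to library size, with the TMM correction for library composition) to compare libraries, and as FPKM (fragments scaled for gene length as well) to compare genes. Fold changes come from edgeR as log2 of knockout over wild type, each with a standard error (SE). The median log2 fold change of all tested genes was -0.002, but it depended on gene length, with 0.39 in the shortest of 20 length bins and -0.46 in the longest. Setd2 itself stood at 127.2 and 112.9 CPM in knockout libraries, against 157.2 and 174.5 CPM in wild type libraries. That count adds every exon and so does not check the deletion. The 7 T cell markers (Cd3d, Cd3e, Cd3g, Cd4, Cd5, Cd28 and Lck) were all detected. Only Cd4 among them is particular to CD4+ T cells, and the others are shared with CD8+ T cells. Their summed levels were 2133 and 2053 CPM in knockout libraries and 2490 and 2790 CPM in wild type libraries. Cd4 was at 403.6 and 444.5 CPM in knockout libraries and at 464.1 and 575 CPM in wild type libraries.

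Of the 6 members, 1 was higher and 2 were lower in both knockout libraries than in both wild type libraries, and 3 overlapped. Groups that did not overlap were found for 49.7% of all tested genes, so nothing is read from this count, and the contrast had chosen the members. The log2 fold change was above 0 for 3 members and below 0 for 3, with a median of 0.05.

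Adam8 was the member that separated the groups most. It stood at 60.3 and 61.9 CPM in knockout libraries, against 29.9 and 30.45 CPM in wild type libraries, on 1039 and 1199 counts against 588 and 602 counts. The replicates of each group lay within 2 CPM of each other and the groups did not overlap. The mean was 61.1 ± 1.15 CPM in knockout and 30.2 ± 0.381 CPM in wild type cells (SD, n = 2 each), a 2.02-fold difference (log2 1.02, SE 0.21). Both knockout libraries were above both wild type libraries in 25.4% of all tested genes, a share from which nothing is read here because this contrast chose the members. In FPKM, Adam8 was at 19.0 and 18.6 in knockout libraries and at 9.44 and 10.17 in wild type libraries. Of 2967 tested genes within a factor of 1.2 of its effective length of 3159 bases, 96.8% had a lower log2 fold change. That rank is likewise a description only, since the members were chosen with this contrast in view. The gene lies on chromosome 7 (GRCm38.p6, 139978932 to 139995207, minus strand). It overlaps the non-coding gene Gm16201 on the other strand at its 3′ end, and whether the library kit kept strand is not given in the sources used here. In bulk RNA, more cells that express a gene and more RNA per cell cannot be told apart.

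**Figure D1:**
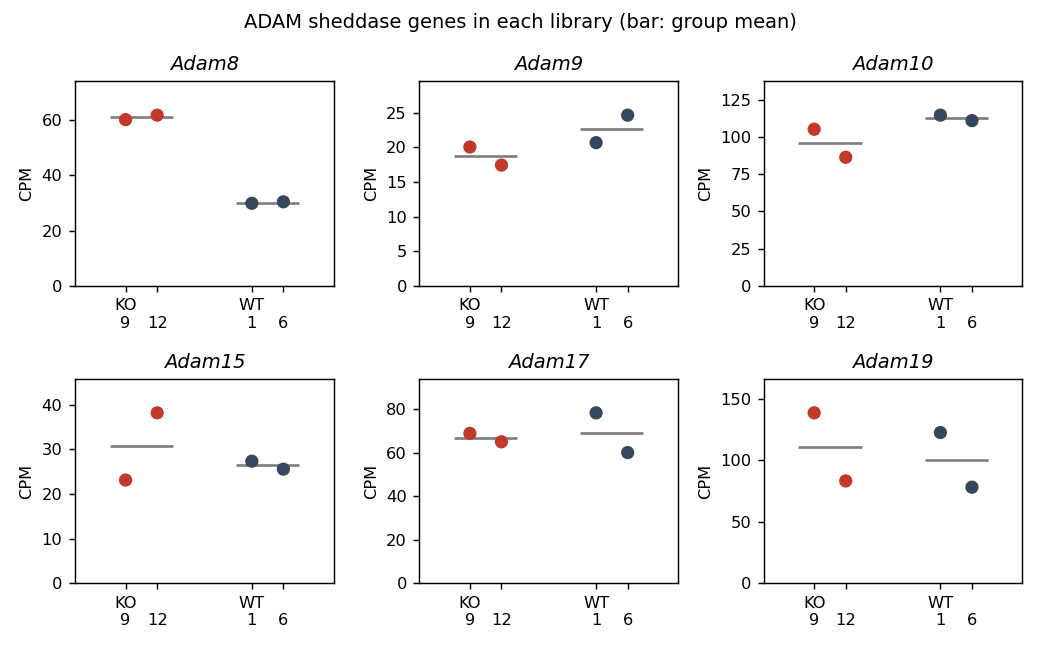
CPM of each ADAM sheddase gene (y axis, from 0) in the 2 knockout libraries (red, replicates 9 and 12) and the 2 wild type libraries (dark, replicates 1 and 6), with a bar at each group mean. Adam8 lies near 61.1 CPM in knockout and 30.2 CPM in wild type libraries with little spread, whereas Adam15, Adam17 and Adam19 overlap between the groups.

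Adam8 is also made by myeloid cells and B cells, so markers of other cell types were read beside it. The 8 markers of monocytes and macrophages summed to 11.2 and 14.9 CPM in knockout libraries and 13.0 and 26.7 CPM in wild type libraries. The 6 B cell markers summed to 201.9 and 355.2 CPM in knockout libraries and 274.5 and 190.6 CPM in wild type libraries. The 6 neutrophil markers summed to 3.48 and 7.95 CPM in knockout libraries and 3.36 and 2.93 CPM in wild type libraries, nearly all from Ly6g, and Elane and Retnlg were at 0 in every library. CD8 T cell markers (Cd8a and Cd8b1) summed to 432 and 323.1 CPM in knockout libraries and 260 and 330.4 CPM in wild type libraries. The 4 NK cell markers summed to 7.43 and 4.85 CPM in knockout libraries and 2.95 and 6.02 CPM in wild type libraries. Mast cell and basophil markers (5 genes) summed to 10.62 and 5.68 CPM in knockout libraries and 2.19 and 6.525 CPM in wild type libraries. For 5 dendritic cell markers the sums were 10.8 and 11.2 CPM in knockout libraries and 12.8 and 16.9 CPM in wild type libraries. Erythroid markers (5 genes) summed to 2.32 and 7.43 CPM in knockout libraries and 6.36 and 20.2 CPM in wild type libraries. The highest mean CPM among the myeloid markers was that of Cd68, at 6.61 and 8.26 CPM in knockout libraries and 5.90 and 12.3 CPM in wild type libraries. The part of any of these cell types in the Adam8 difference was not tested.

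Adam10 and Adam9 were slightly lower in both knockout libraries. Adam10 (chromosome 9, 70678944 to 70780229) stood at 105.4 and 86.5 CPM in knockout libraries, against 114.9 and 111.2 CPM in wild type libraries. The groups did not overlap, but the 2 knockout libraries differed from each other by more than the upper of them differed from wild type. Its mean was 96.0 ± 13.4 CPM in knockout and 113 ± 2.64 CPM in wild type cells (SD, n = 2 each), a log2 fold change of -0.24 (SE 0.21). Adam9 (chromosome 8, 24949611 to 25017040) stood at 20.1 and 17.4 CPM in knockout libraries, against 20.7 and 24.7 CPM in wild type libraries, a log2 fold change of -0.28 (SE 0.24). Knockout replicate 9 and wild type replicate 1 were within 1 CPM of each other for this gene. Both knockout libraries were below both wild type libraries in 24.3% of all tested genes. These are long mRNAs, and genes within a factor of 1.2 of their effective lengths had a median log2 fold change of -0.20 (2184 genes, Adam10) and -0.14 (2628 genes, Adam9). With the length trend removed from each library, the values were -0.04 for Adam10 and -0.13 for Adam9.

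**Figure D2:**
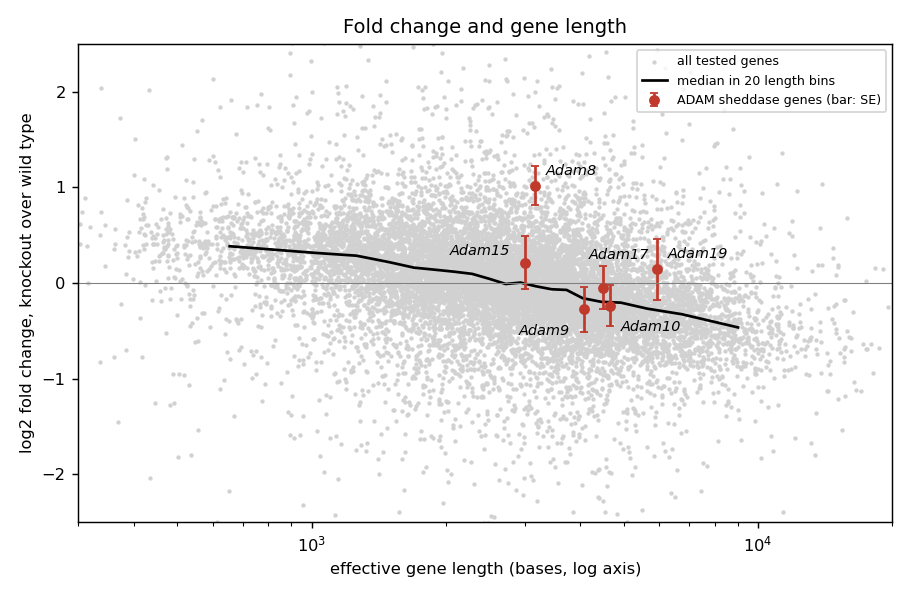
Log2 fold change, knockout over wild type (y axis), against effective gene length in bases (x axis, logarithmic) for all tested genes (grey), with the median in 20 length bins (black line) and the 6 ADAM genes with their SE (red); 100 genes lie outside the plotted range. Adam10 and Adam9 lie within 1 SE of the median of genes of their length, and Adam8 lies far above it.

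Adam17, Adam19 and Adam15 did not separate the groups. Adam17 (chromosome 12, 21323509 to 21373632), the tumour necrosis factor convertase, stood at 68.9 and 65.0 CPM in knockout libraries, against 78.3 and 60.1 CPM in wild type libraries (log2 -0.05, SE 0.22). Both knockout values lay between the 2 wild type values. Adam19 (chromosome 11, 46054502 to 46147347), known for shedding neuregulin, stood at 138.6 and 83.3 CPM in knockout libraries, against 122.6 and 78.2 CPM in wild type libraries (log2 0.14, SE 0.32). The replicates of either group differed more than the groups, with knockout replicate 9 and wild type replicate 1 high and the other two libraries low. Adam15 (chromosome 3, 89339640 to 89350028), which takes part in cell adhesion through its disintegrin domain, stood at 23.1 and 38.2 CPM in knockout libraries, against 27.4 and 25.6 CPM in wild type libraries (log2 0.21, SE 0.28). Knockout replicate 12 was the high library and knockout replicate 9 the lowest of the 4. Genes of similar effective length had a median log2 fold change of -0.28 (1425 genes, Adam19), -0.18 (2326 genes, Adam17) and -0.02 (2970 genes, Adam15). With the length trend removed, the values were 0.39 for Adam19, 0.14 for Adam17 and 0.23 for Adam15. Leaving out a single library turned the direction of all 3. The log2 fold change became 0.16 for Adam17 without wild type replicate 1, -0.14 for Adam19 without wild type replicate 6, -0.25 for Adam19 without knockout replicate 9, and -0.19 for Adam15 without knockout replicate 12. Adam17 and Adam19 had estimated counts that were not whole, such as 1188.3 and 2389.29 in knockout replicate 9, so some of their reads were shared with other genes. Antisense genes overlap Adam15 and Adam19, and the protein-coding gene Iah1 overlaps Adam17, each on the other strand.

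**Figure D3:**
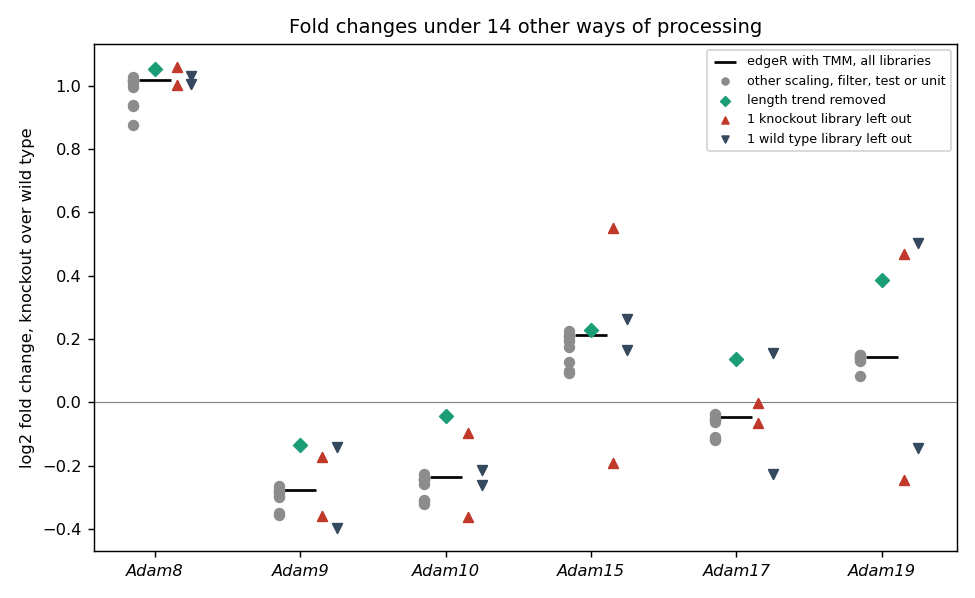
Log2 fold change, knockout over wild type (y axis), of each ADAM gene with all libraries in edgeR (black line) and under 14 other ways of processing (points, with leave-out settings as triangles). Adam8 stays between 0.88 and 1.06, Adam9 and Adam10 stay below 0, and Adam15, Adam17 and Adam19 cross 0 when a single library is left out.

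Per unit of mRNA length, the order of the genes differed between the groups in the place of Adam8. In knockout libraries Adam10 (22.6 and 17.6 FPKM), Adam19 (23.6 and 14.2 FPKM) and Adam8 (19.0 and 18.6 FPKM) had overlapping levels at the top. Adam17 (15.3 and 13.7 FPKM), Adam15 (7.69 and 12.1 FPKM) and Adam9 (4.91 and 4.05 FPKM) followed, each below the one before it in both libraries. In wild type libraries Adam10 (24.6 and 25.1 FPKM) was alone at the top. Adam19 (20.3 and 13.4 FPKM) and Adam17 (17.4 and 14.1 FPKM) overlapped, and Adam8 (9.44 and 10.17 FPKM), Adam15 (9.07 and 8.92 FPKM) and Adam9 (5.09 and 6.39 FPKM) came after them without overlap between neighbours. The FPKM ratio of Adam8 to Adam10 was 0.843 and 1.06 in knockout libraries, against 0.383 and 0.404 in wild type libraries. The 6 genes together summed to 93.0 and 80.1 FPKM in knockout libraries and 85.9 and 78.1 FPKM in wild type libraries, so the total overlapped between the groups. Within that total Adam8 took 20.4% and 23.2% in knockout libraries and 10.98% and 13.0% in wild type libraries. Adam10 and Adam17 together took 40.6% and 39.0% in knockout libraries and 48.9% and 50.3% in wild type libraries. These are parts of the same total, so a larger share of Adam8 by itself lowers the shares of the other genes.

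**Figure D4:**
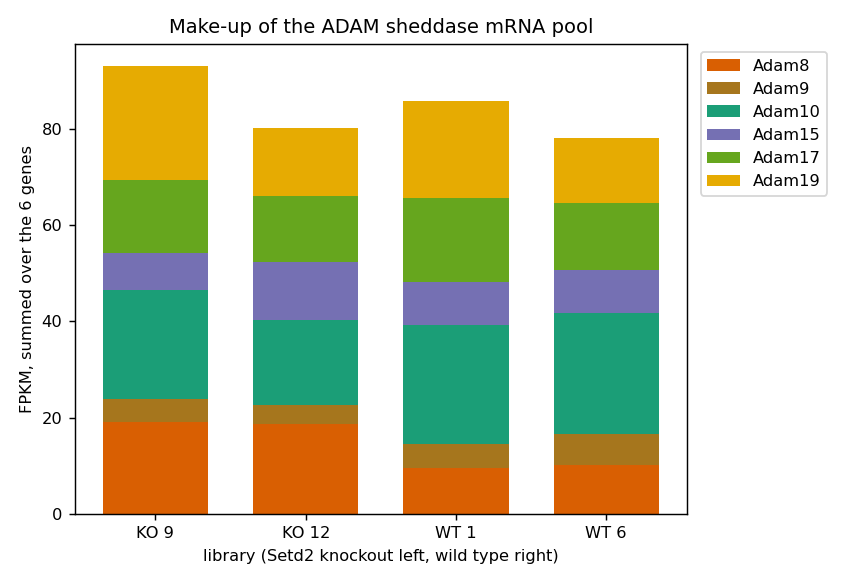
FPKM summed over the 6 ADAM genes (y axis, from 0) in each library, the 2 knockout libraries on the left and the 2 wild type libraries on the right, coloured by gene. The totals of the groups overlap, while the Adam8 segment is about 19 FPKM in knockout libraries and about 10 FPKM in wild type libraries.

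The genes whose profile over the 4 libraries was most like that of a member were taken as the 2 at the smallest Euclidean distance in centred log2 CPM, among 9640 named genes of at least 5 CPM. For Adam8 they were Gabarapl1, which encodes an autophagy protein of the ATG8 family (distance 0.11), and Plscr1, which encodes a phospholipid scramblase (0.12). Gabarapl1 stood at 51.7 and 50.9 CPM in knockout libraries against 23.0 and 24.8 CPM in wild type libraries. Plscr1 stood at 74.9 and 73.4 CPM in knockout libraries against 33.5 and 37.6 CPM in wild type libraries. For Adam10 they were Phf8 (0.01) and Agps (0.02), for Adam9 Cry1 (0.03) and Rgs3 (0.03), for Adam17 Smarca4 (0.02) and Ap3m1 (0.02), and for Adam19 Dip2a (0.09) and Ero1l (0.09). For Adam15 they were Sertad1 (0.04) and Psen2 (0.04), which encodes a catalytic subunit of gamma-secretase. With 4 libraries many genes share any given profile, and the distances are a description only.

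Of the other ADAM genes on the list, 19 of 28 had a line in the table and 7 passed the filter. None of the 7 was called by edgeR at an adjusted p under 0.05, where 1 gene of 12816 (0.0078%) was called higher and 0 lower. DESeq2 also called 0 of the 7, where it called 0.729% of genes higher and 0.804% lower. Before adjustment in edgeR, 1 of the 7 was higher and 1 lower at a p under 0.05, where 6.23% of all tested genes were higher and 5.73% lower. These were Adam12, at 1.04 and 0.723 CPM in knockout libraries and 0.203 and 0.202 CPM in wild type libraries (edgeR adjusted p 0.413), and Adam11, which encodes a member without protease activity, at 1.33 and 0.826 CPM in knockout libraries and 2.80 and 4.10 CPM in wild type libraries (edgeR adjusted p 0.412). Adam28, with the highest mean CPM of the 7, stood at 3.13 and 1.19 CPM in knockout libraries and 1.63 and 4.80 CPM in wild type libraries. Per length, the highest value of any of these 19 genes in a library was 1.24 FPKM (Adam28), below the lowest value of a member, 4.05 FPKM (Adam9).

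The list of sheddase regulators held 23 genes, of which 19 were tested. Neither edgeR nor DESeq2 called any of them, and 0 passed at an unadjusted edgeR p under 0.05. Over all tested genes edgeR called 0.0078% higher and 0 lower, and DESeq2 called 0.729% of genes higher and 0.804% lower. At the unadjusted edgeR p, 6.23% of all tested genes were higher and 5.73% lower. With 19 genes tested, nothing is read from these counts. The median log2 fold change of the 19 regulators was -0.09, against -0.002 over all genes tested. With the length trend removed it was -0.007, against -0.002 over all genes. Furin, the convertase that removes the prodomain of many ADAM proteins, stood at 183.4 and 278.2 CPM in knockout libraries against 179.9 and 103.8 CPM in wild type libraries (log2 0.70, SE 0.33, edgeR adjusted p 0.423). Knockout replicate 9 and wild type replicate 1 were nearly equal. P4hb, a protein disulfide isomerase gene with the highest mean CPM of the list, stood at 502 and 572.7 CPM in knockout libraries against 458.4 and 336.1 CPM in wild type libraries (adjusted p 0.448). For ADAM17, the partner protein gene Rhbdf2 (iRhom2) was at 46.9 and 48.5 CPM in knockout libraries and 36.4 and 44.7 CPM in wild type libraries. Frmd8, whose protein stabilises iRhoms at the cell surface, was at 174.6 and 185.2 CPM in knockout libraries and 191.9 and 235 CPM in wild type libraries. For ADAM10, whose trafficking depends on tetraspanins of the C8 group, Tspan14 was at 69.7 and 66.5 CPM in knockout libraries and 80.6 and 80.7 CPM in wild type libraries (log2 -0.24, SE 0.20, edgeR adjusted p 0.585). Tspan5 was at 23.3 and 25.8 CPM in knockout libraries and 29.7 and 20.9 CPM in wild type libraries. Of the inhibitors, Timp2 was at 17.8 and 25.9 CPM in knockout libraries and 18.6 and 25.5 CPM in wild type libraries. Timp3, the main inhibitor of ADAM17, was under 2 CPM in every library.

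Of 49 genes for proteins that ADAM proteases are known to shed, 40 were tested, with a median log2 fold change of 0.09 against -0.002 over all genes. In edgeR 0 were called over all genes. Before adjustment, 8 were higher and 6 lower at a p under 0.05, where 6.23% of all tested genes were higher and 5.73% lower. DESeq2 called 2 higher and 2 lower, where it called 0.729% of genes higher and 0.804% lower. The groups did not overlap for 16 of the 40 in the higher and 13 in the lower direction, where 25.4% and 24.3% of all genes do so. This list, like the other gene lists, was chosen with earlier results of these data known, so nothing is read from these counts.

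Il6ra, whose shed form carries IL-6 to cells without the receptor, stood at 24.4 and 15.7 CPM in knockout libraries, against 52.2 and 61.4 CPM in wild type libraries (log2 -1.50, SE 0.27). The difference did not pass in edgeR (adjusted p 0.261) but passed in DESeq2 (adjusted p 4.7e-04). Fasl, the death ligand that ADAM10 releases, stood at 20.8 and 19.2 CPM in knockout libraries, against 8.85 and 8.35 CPM in wild type libraries (log2 1.22, SE 0.25, edgeR adjusted p 0.275, DESeq2 0.0276). Like Adam8, it had replicates close together in both groups. Icosl, the ligand of the costimulatory receptor ICOS, stood at 8.88 and 7.95 CPM in knockout libraries against 3.56 and 3.90 CPM in wild type libraries (edgeR adjusted p 0.385, DESeq2 0.195). The highest mean CPM of the list was that of Prnp, the prion protein gene, at 786.3 and 713.5 CPM in knockout libraries and 884.8 and 879.3 CPM in wild type libraries (log2 -0.23, SE 0.20).

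Further genes of the list were picked after their values were seen. Havcr2, encoding the inhibitory receptor TIM-3, was the other gene DESeq2 called higher (adjusted p 0.0355, edgeR 0.386), at 32.7 and 28.3 CPM in knockout libraries against 15.1 and 5.21 CPM in wild type libraries. Wild type replicate 6 was far below wild type replicate 1. Tnf, the classical ADAM17 substrate, stood at 11.8 and 27.5 CPM in knockout libraries and 21.1 and 17.1 CPM in wild type libraries, with the wild type values between those of knockout (log2 0.04, SE 0.39). Notch1, cut by ADAM10 after ligand binding, stood at 214 and 169.5 CPM in knockout libraries against 267.1 and 343.9 CPM in wild type libraries (log2 -0.67, SE 0.24, edgeR adjusted p 0.412). Its effective length was 9635 bases, and genes in the longest of the 20 length bins had a median log2 fold change of -0.46. Lag3 stood at 540.2 and 487.6 CPM in knockout libraries against 686.3 and 735.8 CPM in wild type libraries (log2 -0.47, SE 0.20, edgeR adjusted p 0.416). These are mRNA levels, and shedding itself was not measured. Without wild type replicate 1, which leaves 1 wild type library, the edgeR log2 fold change was 2.55 for Havcr2, 2.16 for Fcer2a and -1.62 for Il6ra. With all 4 libraries it was 1.59, 1.22 and -1.50.

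**Figure D5:**
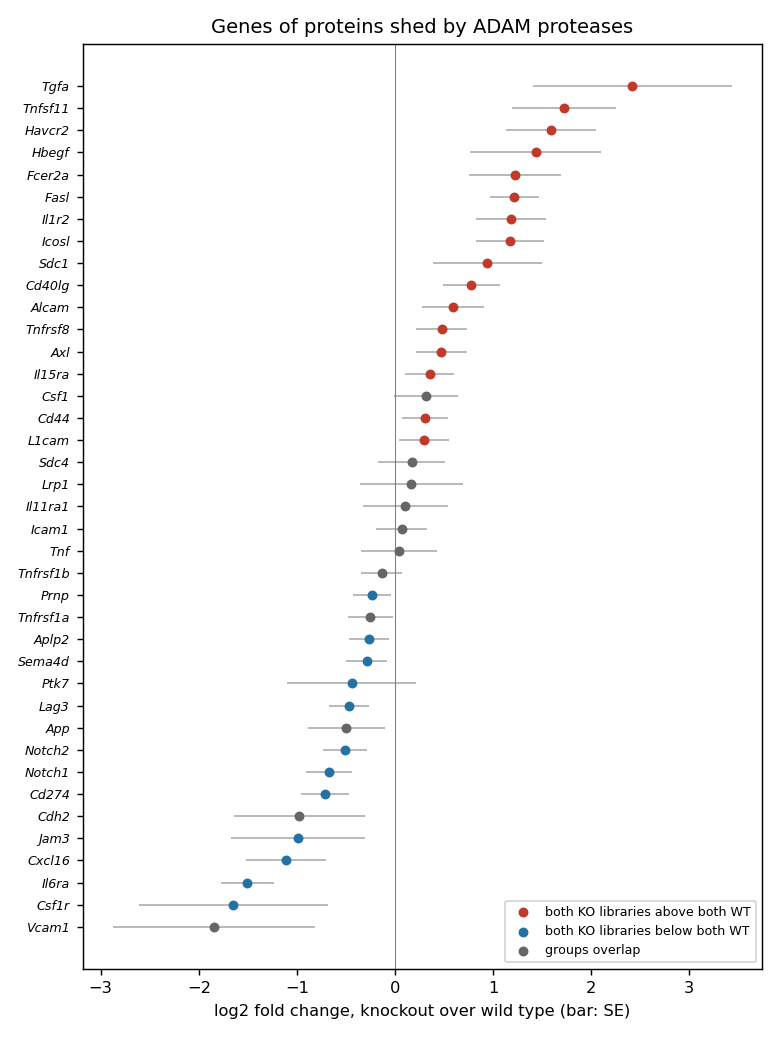
Log2 fold change, knockout over wild type, with its SE (x axis) of 39 of the 40 tested genes for proteins shed by ADAM proteases (y axis; 1 gene is not reported here), coloured by whether the 2 knockout libraries lie above (red), below (blue) or overlap (grey) the 2 wild type libraries. The plot holds 16 red and 12 blue genes, from Tgfa at the top to Vcam1 at the bottom. Both ends are genes of low level. Tgfa was at 0.638 and 0.774 CPM in knockout and 0.051 and 0.202 CPM in wild type libraries. Vcam1 was at 1.16 and 0.516 CPM in knockout libraries, and at 0.56 (replicate 1) and 5.46 CPM (replicate 6) in wild type libraries.

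After an ADAM cut, gamma-secretase cleaves the remaining stub of Notch and other proteins within the membrane. All 7 gamma-secretase subunit genes were tested, and edgeR and DESeq2 called 0 of them, with 0 at an unadjusted edgeR p under 0.05. Over all tested genes edgeR called 0.0078% higher and 0 lower, and DESeq2 called 0.729% of genes higher and 0.804% lower. At the unadjusted edgeR p, 6.23% of all tested genes were higher and 5.73% lower. Psenen, which encodes the smallest subunit and was picked after its values were seen, stood at 66.8 and 83.5 CPM in knockout libraries and 60.0 and 58.9 CPM in wild type libraries (log2 0.34, SE 0.22, edgeR adjusted p 0.496). Of 9 Notch pathway target genes 5 were tested, and 0 were called by edgeR or DESeq2, with 0 at an unadjusted edgeR p under 0.05. The log2 fold change was above 0 for 3 of the 5 tested Notch targets and below 0 for 2. Dtx1, with the highest mean CPM of the 5, stood at 19.0 and 30.8 CPM in knockout libraries and 21.9 and 27.6 CPM in wild type libraries (log2 0.01, SE 0.29), with the wild type values between those of knockout. Hes1, a gene of low level picked after its values were seen, stood at 1.80 and 2.84 CPM in knockout libraries. In wild type libraries it was at 0.458 and 1.16 CPM (log2 1.51, SE 0.70, edgeR adjusted p 0.423).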

How the data were processed

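Gene-level RNA-seq of 4 libraries, 2 knockout and 2 wild type, was analysed. The deposited table gives, per sample, estimated counts (expected counts that need not be whole) and an expression value with no stated unit. That value was read as FPKM made by the authors, since the gene length implied by count, value and library total agreed across the 4 libraries within 5% for 76.4% of 8165 genes with at least 200 counts in each. The submitters' processing notes name Bowtie2, RSEM, GRCm38.p6 and mm10, with no versions or settings, and nothing on strand. The group averages were not used.

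Counts were rounded, filtered with filterByExpr (minimum count 10, leaving 12816 of 18560 genes), scaled by TMM and compared with the quasi-likelihood test of edgeR 4.0.16 (R 4.3.3, limma 3.58.1, robust, two-sided), with Benjamini-Hochberg adjustment over all tested genes and a threshold of 0.05. The SE came from the F statistic. DESeq2 1.42.0 was an alternative, beside other scalings, filters, limma on log2(FPKM + 0.1) or log2(FPKM + 1), removal of a length trend, and leaving out each library. The members and gene lists were chosen with earlier results of these data known. Named list genes were those with the smallest unadjusted p under 0.05 (at most 4 a list), the most abundant gene of each list, and regulators of a member; some of these are not reported here. Gene positions are from RefSeq (GRCm38.p6).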

Additional observations from a re-analysis of the deposited data

How the results depend on the processing

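With 2 libraries per group, leaving out 1 leaves a lone sample that is assumed to vary like the other group. No paired analysis was possible because the groups share no replicate number. The log2 fold change of Adam8 was 0.94 with library size only, 0.93 and 0.88 in log2(FPKM + 0.1) and log2(FPKM + 1), 1.05 with the length trend removed, and 1.002 to 1.06 with a library left out. The log2 fold change was -0.044 for Adam10, 0.14 for Adam17 and 0.39 for Adam19 with the length trend removed. With a library left out it ran from -0.36 to -0.10 (Adam10), -0.40 to -0.14 (Adam9), -0.19 to 0.55 (Adam15), -0.23 to 0.16 (Adam17) and -0.25 to 0.50 (Adam19), and Adam9 was in no setting moved by more than its replicate spread. Calls over all genes were 1 higher and 0 lower, against 88 and 97 in DESeq2, 48 and 33 with no filter on low counts, and 0 to 98 and 0 to 70 with a library left out (98 and 70 with wild type replicate 1 left out, 22 and 8 with wild type replicate 6 left out). Among shed proteins they were 2 and 2 in DESeq2, 0 and 1 (Il6ra) with no filter, and 0 to 2 and 0 to 1 with a library left out. The median of the shed proteins (0.09) was 0.001 with library size only, -0.11 with no filter, -0.027 and -0.022 in log2(FPKM + 0.1) and log2(FPKM + 1), and -0.18 to 0.26 with a library left out. The median of gamma-secretase (0.13) was 0.053 with library size only, 0.005 and 0.006 in the FPKM fits, and 0.11 to 0.17 with a library left out. The median of the Notch targets (0.01) was -0.014 with upper-quartile factors, -0.081 with library size only, -0.075 at a minimum count of 50, -0.11 and -0.10 in the FPKM fits, and -0.15 to 1.24 with a library left out. With a library left out the medians ran from -0.225 to 0.086 for regulators, -1.41 to -0.33 for other ADAM genes, and -0.521 to -0.058 for other proteases, which stood at 0.14 with no filter. The cause of these shifts was not tested.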

Other observations

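Other proteases of the cell surface and matrix were also read. Of 31 listed genes 17 were tested, with a median log2 fold change of -0.36 against -0.002 over all genes tested. With the length trend removed the median was -0.23, against -0.002 over all genes. Both edgeR and DESeq2 called 0 of the 17. Over all genes edgeR called 0.0078% higher and 0 lower, and DESeq2 called 0.729% higher and 0.804% lower. At an unadjusted edgeR p under 0.05, 2 of the 17 were higher and 2 lower, where 6.23% of all tested genes were higher and 5.73% lower. Adamts14, which encodes a procollagen-processing protease, stood at 27.9 and 9.04 CPM in knockout libraries, against 5.34 and 6.63 CPM in wild type libraries (log2 1.62, SE 0.51, edgeR adjusted p 0.394), with knockout replicate 9 far above the rest. The matrix metalloprotease gene Mmp10 stood at 1.86 and 2.94 CPM in knockout libraries, against 0.254 and 0.455 CPM in wild type libraries (adjusted p 0.352). Mmp15 stood at 0.928 and 1.497 CPM in knockout libraries, against 2.59 and 6.78 CPM in wild type libraries (adjusted p 0.394). Mmp11 stood at 4.24 and 4.13 CPM in knockout libraries, against 7.07 and 8.60 CPM in wild type libraries (adjusted p 0.413). The highest mean CPM of the list was that of Adamts10, at 72.1 and 41.5 CPM in knockout libraries and 69.5 and 76.5 CPM in wild type libraries. All of these except Adamts10 and Adamts14 lay under 10 CPM in each library.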
